A study of Mus musculus with 15 samples.

Results

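In HPC-7 cells, 3159 regions of histone H3 trimethylated at lysine 4 (H3K4me3) lay at the ends of protein-coding genes and overlapped no called peak of the transcription factor YY1. They were 32.5% of the 9729 H3K4me3 regions at gene ends and 19.0% of all 16653 H3K4me3 regions. A region was made by merging the H3K4me3 peaks of 3 libraries that shared at least 1 bp, and it was kept when at least 2 of those libraries had a peak in it. A gene end is a position within 1000 bp of the start or of the far end of a protein-coding gene in RefSeq (GRCm38, the assembly of mm10). A region counted as lacking YY1 when no peak of any of 3 control YY1 libraries touched it. Because H3K4me3 and YY1 peaks chose these regions, both marks are described here without a test. The deposited peak lists give no peak height and no read number, so a region without YY1 is one without a called peak, and weak occupancy cannot be told apart from none.

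All values come from CUT&Tag, in which an antibody brings a transposase to its target and the transposase cuts and tags the DNA beside it. HPC-7 is a mouse early blood progenitor line that was made from embryonic stem cells with the LIM-homeobox factor Lhx2. Control cells, named WT in the sample titles and shLUC in the descriptions, were profiled for H3K4me3, for YY1 and for SMC3, a cohesin subunit, while cells carrying the hairpin shYY1 were profiled for SMC3, with 3 libraries in each of these 4 groups and about 150000 cells in a reaction. The labels call the libraries of a group biological replicates. All shYY1 descriptions read shYY1-2, and Abcam stands in the description of SMC3 library 1 of either arm and of no other. Neither YY1 in shYY1 cells nor IgG was analysed here, and thus neither the depth of the knockdown nor the antibody background was measured.

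Each H3K4me3 list held 16763 to 17895 peaks, each YY1 list 3750 to 10699, each control SMC3 list 2061 to 4595 and each shYY1 SMC3 list 2631 to 3213. The third YY1 library and the third control SMC3 library had the fewest peaks of their groups. The mark lay at genes of the labelled cell type: 22 of 28 listed blood stem and progenitor regulators had H3K4me3 at a gene end, against 0 of 10 pluripotency genes and 0 of 18 markers of nerve, muscle, liver and epithelium. Of all 21883 protein-coding genes, 10120 had it. So did 6 of 16 granulocyte and monocyte markers and 5 of 12 megakaryocyte and mast cell markers. Of lymphocyte markers 3 of 22 had it, and of endothelial markers 2 of 15.

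H3K4me3 is laid down around the starts of active and poised genes, above all at CpG-rich promoters, by the SET1 and MLL methyltransferase complexes. YY1 is a zinc finger protein that binds promoters and enhancers, recognises a short word built around GCCAT, and has been linked to contacts between promoters and enhancers and to the self-renewal of blood stem cells. Cohesin is a ring of SMC1, SMC3, RAD21 and a STAG protein that extrudes DNA loops and comes to rest at CTCF sites and at active promoters.

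Promoters show what such a region covers. The first pair below are the promoter under the longest H3K4me3 region without YY1, that of Tspan4, and the promoter of Tnfrsf21, the first of the regions without YY1 but with SMC3 in at least 2 libraries of an arm that covers a start in the promoter table. The second pair are the promoters of Brd2 and Foxo3, which have the longest H3K4me3 regions among those with YY1 in all 3 libraries. Each runs 5′ to 3′ from 250 bases before to 50 bases after the RefSeq start (GRCm38.p6), and capitals mark matches to the motif words listed further down.
Tspan4 (chr7:141476130-141476429, plus strand): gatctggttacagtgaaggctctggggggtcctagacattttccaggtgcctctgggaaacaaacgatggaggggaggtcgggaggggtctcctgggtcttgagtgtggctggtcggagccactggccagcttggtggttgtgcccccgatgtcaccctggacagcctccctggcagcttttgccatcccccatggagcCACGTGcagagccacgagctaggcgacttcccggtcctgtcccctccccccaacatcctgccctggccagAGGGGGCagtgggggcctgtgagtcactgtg
Tnfrsf21 (chr17:43016305-43016604, plus strand): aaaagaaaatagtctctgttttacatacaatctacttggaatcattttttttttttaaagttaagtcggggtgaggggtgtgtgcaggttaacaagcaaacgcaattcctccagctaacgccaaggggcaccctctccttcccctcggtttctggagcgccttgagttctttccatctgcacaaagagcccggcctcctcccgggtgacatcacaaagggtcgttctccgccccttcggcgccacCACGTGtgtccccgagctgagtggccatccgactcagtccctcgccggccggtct
Brd2 (chr17:34121698-34121997, minus strand): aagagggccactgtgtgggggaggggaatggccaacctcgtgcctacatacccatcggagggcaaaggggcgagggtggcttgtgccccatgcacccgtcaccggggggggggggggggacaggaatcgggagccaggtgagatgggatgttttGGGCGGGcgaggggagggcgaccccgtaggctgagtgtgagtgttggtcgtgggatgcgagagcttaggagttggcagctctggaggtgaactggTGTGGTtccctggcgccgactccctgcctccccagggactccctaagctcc
Foxo3 (chr10:42276646-42276945, minus strand): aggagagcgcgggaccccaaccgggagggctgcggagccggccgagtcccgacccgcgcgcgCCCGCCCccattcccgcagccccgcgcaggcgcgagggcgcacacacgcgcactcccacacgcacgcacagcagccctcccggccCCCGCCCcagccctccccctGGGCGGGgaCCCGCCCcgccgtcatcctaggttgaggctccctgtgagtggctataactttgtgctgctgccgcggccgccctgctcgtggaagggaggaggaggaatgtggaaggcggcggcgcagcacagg

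The Tspan4 promoter held an E-box and a CTCF core word and had an observed to expected CpG ratio of 0.264, whereas the Tnfrsf21 promoter held an E-box and had a ratio of 0.801. Neither held a YY1 word. Brd2, with a ratio of 0.466, and Foxo3, with 0.834, held none either, so these single promoters do not separate the classes and the counts over all promoters below carry the comparison.

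H3K4me3 regions without YY1 sat differently around the gene start. The promoter table gives a start, with strand, for 17491 of 21883 protein-coding genes (79.9%), and 2313 of the 3159 regions lay within 1000 bp of such a start. Of these, 67.7% covered the start, 23.9% lay wholly downstream of it inside the gene and 8.34% lay wholly upstream. Among regions with YY1 and a start within the same distance, 94.9% covered the start, 2.05% lay downstream and 3.04% upstream. The shares covering a start were 90.3%, 95.3% and 96.6% for YY1 in 1, 2 and 3 libraries. Where the start was covered, the region without YY1 reached from a median of -278 to +639 bp around it (negative is upstream), against -428 to +724 bp with YY1. The upstream reach thus differed more than the downstream reach. A start lay within 1000 bp of 73.2% of regions without YY1 and of 81.1% of those with YY1. The rule leaves out each region that touches a YY1 peak, and its part in these positions was not tested.

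**Figure D1:**
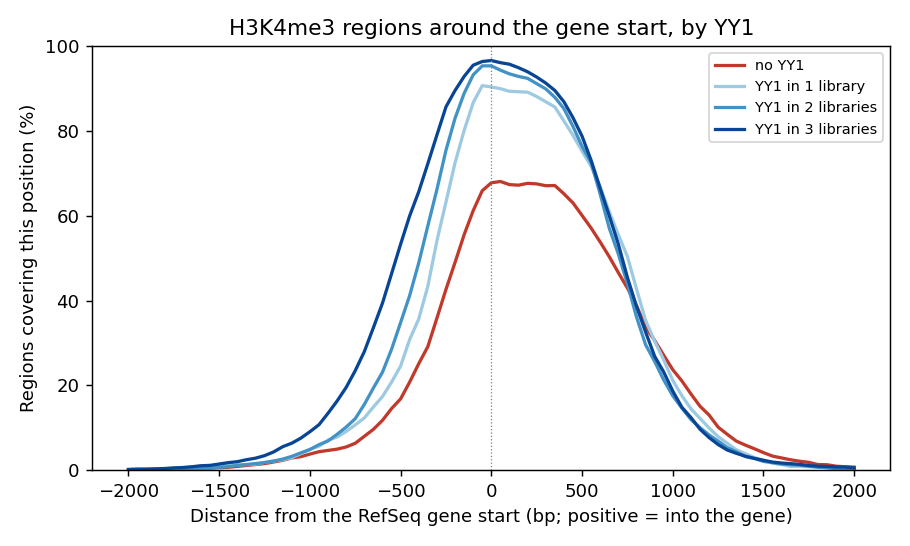
Share of H3K4me3 regions (vertical axis, %) that cover each position from 2000 bp before to 2000 bp after the RefSeq gene start (horizontal axis, bp), for regions without YY1 and with YY1 in 1, 2 or 3 control libraries, over regions with a start within 1000 bp. The curve without YY1 peaks near the 67.7% that cover the start, below the curves with YY1, and is shifted into the gene.

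The H3K4me3 summits moved the same way. Over regions that cover a start, the median summit lay 86.5, 62.0 and 51.0 bp downstream of the start in H3K4me3 libraries 1, 2 and 3 without YY1, against 29, 17 and 8 bp with YY1. All 3 medians without YY1 were above all 3 with YY1. Regions near starts on both strands, as at divergent promoters, made up 6.05% of those without YY1, against 9.25%, 12.4% and 18.1% of those with YY1 in 1, 2 and 3 libraries. Starts were sought up to 1000 bp beyond either edge, so a longer region spans more. The part of region length in these shares was not tested. Most gene-end regions of both kinds marked starts: only 91 of 2503 regions without YY1 whose strand is known (3.64%) lay at a far end and at no start, against 1.51% with YY1.

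Part of the regions without YY1 were neighbours of a YY1 peak. The nearest YY1 peak was at a median of 23577 bp, with lower and upper quartiles of 5370 and 66772 bp, and 1003 regions (31.8%) were over 50000 bp from any. At the other extreme, 500 regions (15.8%) lay under 1000 bp from a YY1 peak, and for 487 of these the YY1 peak sat in another H3K4me3 region. Of the near regions with a known start, 73.0% lay downstream of the start and 17.1% covered it, while of the 2659 regions at 1000 bp or more 14.1% lay downstream and 77.9% covered it. The near regions thus gave 281 of the 553 regions without YY1 that lay downstream of a start.

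Some regions lay close to the edge of the rule on either side, and not all of them were shown to cover a gene start. The region closest to a YY1 peak without touching one was at Ctcf, the gene of the insulator protein, 221 to 1344 bp downstream of the start and 176 bp from YY1. The next were at Hmga1, a chromatin architectural protein (183 bp), Gtdc1, a glycosyltransferase-like gene (186 bp), Etnk1, ethanolamine kinase 1 (207 bp), and Ogfrl1 (210 bp). Just outside the rule, with the smallest overlaps with a YY1 peak of 1 library, were regions at Cacna1a (107 bp), Gm33989 (131 bp), Sec63 (132 bp), Haao (132 bp) and Mcu (133 bp).

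Regions without YY1 were shorter. Their median summed H3K4me3 peak length was 782 bp in library 1, 698 bp in library 2 and 713 bp in library 3, against 1133, 1023 and 1043 bp for gene-end regions with YY1. The ratio of the medians was 0.685 ± 0.0042 (SD, n = 3 libraries). Merged regions had a median of 810 bp without YY1, and of 1071, 1116 and 1251 bp with YY1 in 1, 2 and 3 libraries. Over 4 length classes of equal size, which ended at 785, 1065, 1349 and 4209 bp, regions without YY1 made up 61.6%, 30.8%, 22.7% and 14.8%. A longer region offers more positions for a YY1 peak to touch, and the part of this in the difference was not tested. With the 500 regions near YY1 left out the ratio was 0.724. The rule itself asks for a peak in at least 2 of the 3 H3K4me3 libraries. Of the 3159 regions without YY1, 2980 (94.3%) were called in all 3, against 98.9% to 99.9% in the classes with YY1.

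**Figure D2:**
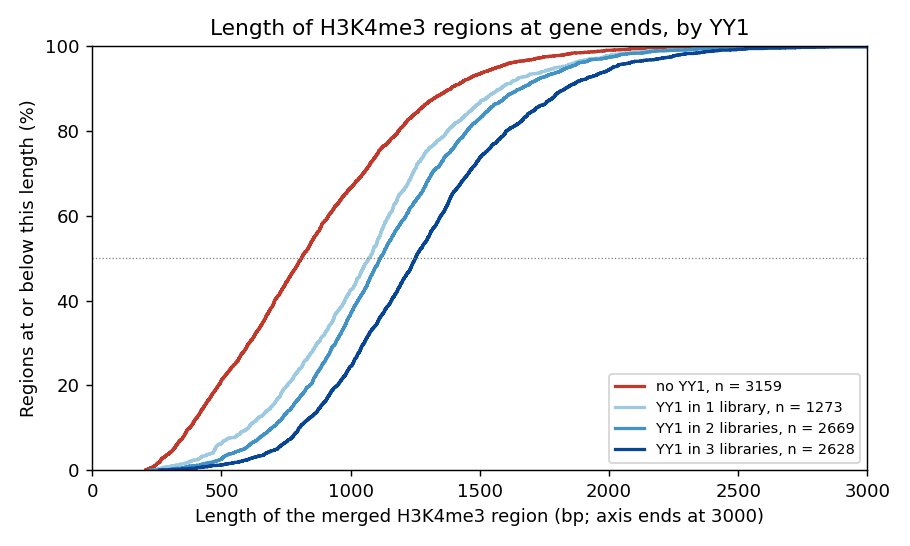
Cumulative share of gene-end H3K4me3 regions (vertical axis, %) up to each merged length (horizontal axis, bp), without YY1 and with YY1 in 1, 2 or 3 control libraries. The 50% line is crossed at 810 bp without YY1 and at 1071, 1116 and 1251 bp with YY1 in 1, 2 and 3 libraries.

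Length did not bar a gene end from lacking YY1. The longest region without YY1, between Polr2l, a subunit of the RNA polymerases, and the tetraspanin gene Tspan4 (chr7:141474940-141477704), held 2601, 2729 and 2571 bp of H3K4me3 in libraries 1, 2 and 3, and reached from -1440 to +1324 bp around the Tspan4 start. At Coro1a, a leukocyte actin-binding protein, the lengths were 2620, 2577 and 2377 bp. At Inppl1, the inositol phosphatase SHIP2, they were 2195, 2179 and 2138 bp, with no YY1 peak within 57813 bp. Prkg1, a cGMP-dependent kinase, had 2372, 2110 and 1993 bp, nearly all of it downstream of its start (-175 to +2259 bp). The other 6 of the 10 longest were at Tgif2 with LOC115486128, Sh3bp1, Sh2d5, Lgals1, Med12l and Svil. None of the 10 had an SMC3 peak in any library, where only 1.65% of all regions without YY1 had one. By the mean percentile of H3K4me3 length over the libraries, which also ranks the longest regions above, the lowest regions called in all 3 libraries were at Tbc1d15 (232, 175 and 203 bp), Tmpo, Ralgds, Pigyl and Dmxl2, and 3 of these 5, at Tbc1d15, Tmpo and Pigyl, were 659 to 815 bp from a YY1 peak.

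The promoters differed in the words they carry. Promoter windows of 300 bases, 1 for each region that covers a start, were compared for 1567 regions without YY1 and 5055 with YY1, and for all 21262 windows of the table. Both strands were searched. The YY1 word AAGATGGC stood in 20 of the 1567 windows without YY1 (1.28%), in 5.35%, 5.22% and 9.07% of those with YY1 in 1, 2 and 3 libraries, and in 3.05% of all windows. The wider YY1 core GCCATNTT, which includes the reverse complement of that word, stood in 2.87% without YY1, in 9.101%, 10.4% and 16.2% with YY1 in 1, 2 and 3 libraries, and in 6.37% of all windows. The share without YY1 was thus below that of promoters at large.

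The YY1 word was rarer without YY1 at each base composition. In the GC-poorest of 3 classes of equal size 1.74% of windows without YY1 held AAGATGGC, against 8.19% with YY1. In the middle class the shares were 1.41% and 7.36%, and in the GC-richest class 0.588% and 5.06%. A word match is a string of letters and not a bound site, and most windows with YY1 hold no such word.

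The YY1 word, in capitals, is shown within its surroundings in 8 of these promoters, 5′ to 3′ on the gene's strand. The first 4 are promoters without YY1, the last 4 promoters with YY1 in all 3 libraries, and in each set they are those with the longest H3K4me3; this set was chosen after the values had been seen. The number is the distance of the first capital from the start, negative upstream.
Inppl1 (+32): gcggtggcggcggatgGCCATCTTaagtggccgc
Cpd (+39): ttagcggcgttgctggAAGATGGCgag
Hcfc2 (+27): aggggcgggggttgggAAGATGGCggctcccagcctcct
Ndufa9 (+29): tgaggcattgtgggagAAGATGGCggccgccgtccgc
Trim27 (-13): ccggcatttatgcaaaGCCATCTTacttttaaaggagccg
Oxsr1 (-67): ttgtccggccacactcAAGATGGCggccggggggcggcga
Gid4 (-124): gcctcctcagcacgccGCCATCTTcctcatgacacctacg
Ptbp1 (-225): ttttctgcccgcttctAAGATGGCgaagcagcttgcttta

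The word stood downstream of the start in the 4 shown without YY1 and upstream in the 4 shown with YY1, but this did not hold over all matches. Of 20 matches without YY1, 13 (65.0%) began at or after the start, against 66.0%, 67.0% and 52.9% with YY1 in 1, 2 and 3 libraries and 47.6% in all windows. Hcfc2, a homologue of the YY1-associated cofactor HCF-1, had its nearest YY1 peak 1159 bp away. Inppl1, Cpd, which codes for carboxypeptidase D, and Ndufa9, a complex I subunit, had theirs 57813, 82057 and 89782 bp away.

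Other words differed by smaller ratios, although for the most common ones by more percentage points. The CCAAT box of NF-Y stood in 31.8% of windows without YY1, in 33.4%, 42.0% and 46.8% with YY1 in 1, 2 and 3 libraries, and in 38.2% of all. The SP/KLF word GGGCGGG stood in 45.8%, against 48.0%, 54.9% and 57.1%, with 33.9% of all. The ETS word CCGGAAGT (8.68% without and 10.7% with YY1, 5.15% of all), the NRF1 word GCGCATGC (5.17%, 7.06% and 3.51%), the CRE word TGACGTCA (2.87%, 4.10% and 2.23%) and the E-box CACGTG (9.25%, 11.7% and 7.84%) were somewhat rarer without YY1. The GATA word AGATAA was more common without YY1, at 6.57% against 5.02%, and stood in 9.65% of all windows. The TATA word TATAAA (6.38% and 5.70%, 12.6% of all), the RUNX word TGTGGT (11.9% and 11.8%, 15.0% of all), the CTCF core word AGGGGGC (16.5% and 17.3%, 12.9% of all), the ZNF143 word ACTACAA (5.23% and 5.005%, 3.60% of all) and the PU.1 word GAGGAAGT, which shares its end with the ETS word (3.06% and 3.38%, 3.13% of all), were within 1 percentage point.

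Promoters without YY1 held fewer CpGs for their composition. Their median GC content was 61.0%, against 62.3% with YY1 and 56.3% over all windows. Their median observed to expected CpG ratio was 0.757, against 0.792, 0.821 and 0.816 with YY1 in 1, 2 and 3 libraries and 0.567 over all windows. A ratio under 0.6 was found for 27.8% of windows without YY1 and 14.2% with YY1. These shares describe the annotated windows and have no replicate error.

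**Figure D3:**
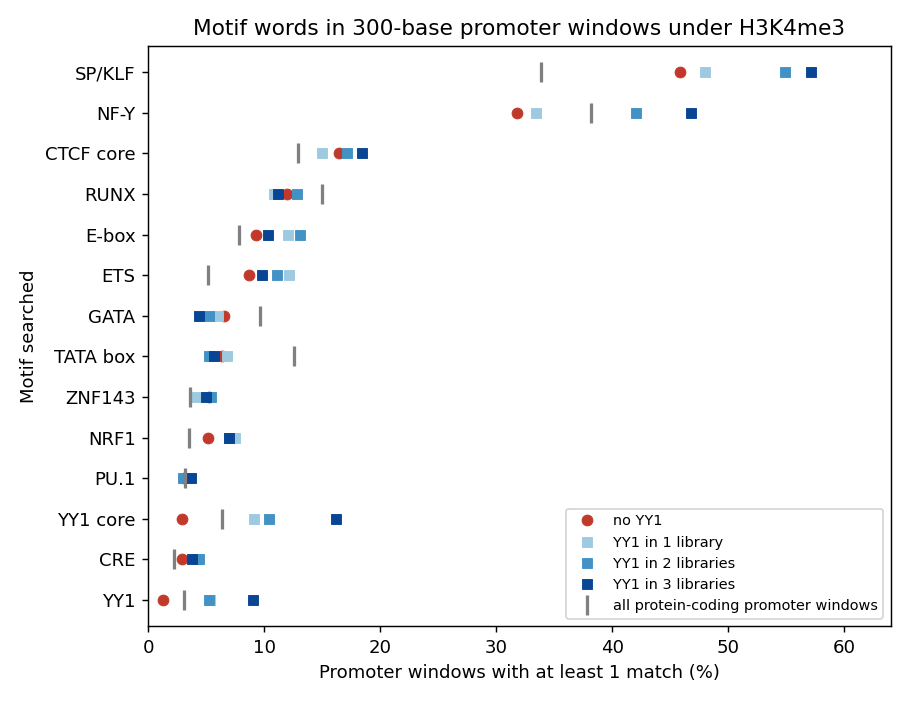
Share of 300-base promoter windows with at least 1 match to each named motif word on either strand (horizontal axis, %), for windows under H3K4me3 without YY1 (circles) and with YY1 in 1, 2 or 3 libraries (squares), and for all windows of the table (vertical bars). The YY1 word lies at 1.28% without YY1 and at 9.07% with YY1 in all 3 libraries.

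The next question was whether cohesin was called at gene ends that lack YY1. SMC3 was almost absent there. In control cells 20, 30 and 2 of the 3159 regions had an SMC3 peak in libraries 1, 2 and 3, that is 0.633%, 0.950% and 0.0633%. The 95% Wilson intervals, which cover counting error only, were 0.410 to 0.976%, 0.666 to 1.35% and 0.0174 to 0.231%. At the 6570 gene-end regions with YY1 the shares were 45.2%, 46.8% and 21.8%. In each library the SMC3 share without YY1 was thus below 1%, and the third library, with the fewest peaks, was lowest in both classes.

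In shYY1 cells 3, 7 and 7 of the 3159 regions had an SMC3 peak, that is 0.0950%, 0.222% and 0.222%, against 28.4%, 32.7% and 31.7% of the regions with YY1 in control cells. The log2 odds ratio of SMC3, without against with YY1, was -6.98, -6.49 and -8.46 in control libraries 1, 2 and 3 (mean -7.31 ± 1.03 SD, n = 3) and -8.48, -7.67 and -7.61 in shYY1 libraries (mean -7.92 ± 0.488 SD, n = 3). All 6 libraries went the same way. The exact two-sided sign-flip permutation test gave p = 0.25 in each arm, the smallest p that 3 libraries allow.

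The SMC3 share followed the number of YY1 libraries. The mean over control libraries was 0.549 ± 0.449% without YY1, 5.55 ± 4.29% with YY1 in 1 library, 27.3 ± 16.03% in 2 and 64.4 ± 16.6% in 3 (SD, n = 3). The shYY1 means were 0.179 ± 0.0731%, 2.49 ± 0.654%, 18.9 ± 2.89% and 56.9 ± 2.39% (SD, n = 3). In each of the 6 libraries the 4 classes stood in this order.

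**Figure D4:**
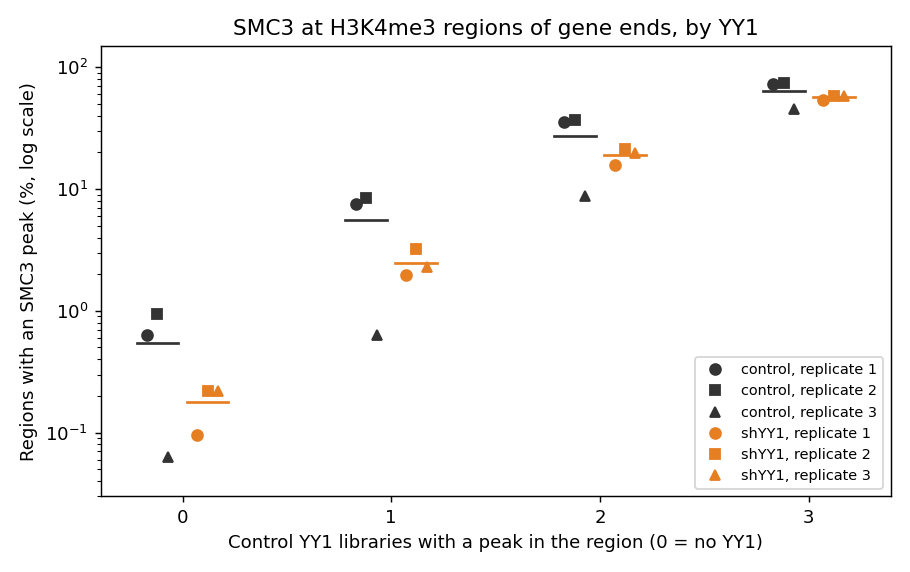
Share of gene-end H3K4me3 regions with an SMC3 peak (vertical axis, %, log scale) against the number of control YY1 libraries with a peak in the region (horizontal axis), with a point for each control and shYY1 SMC3 library and a line at each mean of 3. Regions without YY1 lie between 0.0633% and 0.950%, and regions with YY1 in 3 libraries between 45.4% and 75.04%.

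SMC3 was rarer without YY1 in each length class. Within the 4 length classes, from the shortest to the longest, the mean log2 odds ratio over control libraries was -6.67, -7.12, -6.47 and -6.93, and over shYY1 libraries -7.93, -7.46, -7.08 and -6.90. Some of these library values rest on 0 regions with SMC3 without YY1, where the added 0.5 sets the size. Without the 500 regions near a YY1 peak the ratio was -7.17 in control and -7.74 in shYY1 cells. Background cutting at open promoters, which YY1 and SMC3 reactions could share, was not tested, since IgG was not analysed.

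Between the arms no change of SMC3 at regions without YY1 could be told from the replicate spread. The mean share differed by -0.369 percentage points (shYY1 minus control), and the exact two-sided permutation test gave p = 0.4 (3 against 3 libraries; the smallest p this design allows is 0.1). The shYY1 minus control difference of the log2 odds ratio was -0.609, with p = 0.4 in the same exact permutation test. All 4 tests of SMC3 had a Benjamini-Hochberg adjusted p of 0.4 in these exact permutation tests. The arms overlapped, because control library 3, with 2 regions, lay below every shYY1 library. Without that library the difference in share was -0.612 points, and the difference in log2 odds ratio -1.18, each with p = 0.1 in the exact permutation test, the smallest that 2 against 3 libraries allow. With the same number of the longest SMC3 peaks from each library, 2061, the difference in share was -0.0106 points and that in log2 odds ratio turned to 0.0625.

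Few regions without YY1 had SMC3 in more than 1 library. Over control libraries 6 had SMC3 in at least 2, where 26.1% of all 9729 gene-end regions did, and over shYY1 libraries 2 did, where 20% of all did. The count rested on the YY1 libraries, since without YY1 library 2, which has the most peaks, 48 and 15 regions would meet it. A total of 52 regions (1.65%) had an SMC3 peak in any of the 6 libraries, against 58.5% of the regions with YY1 and 40% of all gene-end regions. Of the 52, 37 had SMC3 in control libraries only, 7 in shYY1 libraries only and 8 in both. Of all 9729 gene-end regions, 3893 had SMC3 in any library. Those were 1032 in control libraries only (10.6% of the 9729), 225 in shYY1 libraries only (2.31%) and 2636 in both (27.1%). None of the 52 had SMC3 in all 3 control libraries and in no shYY1 library, a pattern of 0.247% of all gene-end regions.

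The 7 regions with SMC3 in at least 2 libraries of an arm were at least 31194 bp from YY1, and 5 of them were longer than the median of 810 bp. The region at Dtx4, a Deltex ubiquitin ligase of the Notch pathway (chr19:12501020-12502221), had SMC3 in all 3 control libraries and in shYY1 libraries 1 and 2, with 1202, 888 and 1170 bp of H3K4me3 and the nearest YY1 peak 70925 bp away. Enc1, a Kelch-type actin-binding protein (chr13:97240352-97242095), had SMC3 in control libraries 1 and 2 and shYY1 library 2, with 1725, 1744 and 1458 bp of H3K4me3. Tnfrsf21, the death receptor whose promoter is printed above (region chr17:43016422-43017877), had SMC3 in control libraries 1 and 2 and shYY1 library 1, with 1419, 1424 and 1456 bp and YY1 139753 bp away. Of the 7, only Dtx4 had SMC3 called in the sparse control library 3.

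Tbc1d4, a GTPase-activating protein of Rab proteins, Gm51999, a predicted gene, and Mc5r, a melanocortin receptor, had SMC3 in control libraries 1 and 2 and in no shYY1 library. Pip4k2a, a phosphatidylinositol phosphate kinase, had SMC3 in control library 2 and in shYY1 libraries 2 and 3, over 2041, 1727 and 1732 bp of H3K4me3. Nearest YY1 peaks of these 4 lay 31194 to 75256 bp away. Single-library SMC3 calls, named here after their values were seen, included regions at Nfkbia, the inhibitor of NF-kappaB, Jund with Iqcn, and Dach1, which were 383, 729 and 529 bp from a YY1 peak. These do not stand for the set, since others lay far from YY1, such as Niban1 (69916 bp) and Wwp1 (133035 bp). Of all regions without YY1, 15.8% lay under 1000 bp from a YY1 peak.

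Genes were counted next. A total of 10120 protein-coding genes had H3K4me3 at an end, and 3189 had a region without YY1 there. Of these, 2466 (24.4% of the 10120) had no region with YY1 at an end. Only regions at gene ends were counted, here and in the lists, so a gene may still have YY1 elsewhere. The other 723 had both kinds. These 24.4% are the background for each list below. A gene carries 1 count however many regions it has, and neighbours that share a region both count. A shared region was not assigned to 1 of its genes. The lists are described by their counts, with no test.

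Blood genes stood on both sides. Of the 22 stem and progenitor regulators with H3K4me3, 8 had only regions without YY1: Runx1, Gfi1, Gfi1b, Hlf, Fli1, Ikzf1, Spi1 and Procr. Runx1, a core factor of blood stem cell formation, had 1358, 820 and 966 bp of H3K4me3 from -126 to +1238 bp around its start (chr16:92824836-92826200), and its nearest YY1 peak was 2206 bp away. Gfi1, a repressor that guards stem cell quiescence, had 741, 778 and 862 bp, and its erythroid relative Gfi1b 953, 833 and 548 bp, with YY1 32749 and 18744 bp away. Hlf, a stem cell bZIP factor, had 791, 779 and 790 bp in the longer of its 2 regions, which began 577 bp downstream of its start. At Spi1, which codes for PU.1, the lengths were 799, 509 and 562 bp, and at Ikzf1, which codes for Ikaros, 867, 840 and 559 bp. None of the 8 had an SMC3 peak, where only 1.65% of all regions without YY1 had one in any library.

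Among granulocyte and monocyte markers, 4 of 6 had only regions without YY1. Csf3r, the G-CSF receptor, had 1030, 886 and 867 bp of H3K4me3 in libraries 1, 2 and 3, and Cd14, the endotoxin co-receptor, 1144, 1208 and 1187 bp. Csf2ra, the GM-CSF receptor alpha chain, had 659, 702 and 727 bp, and Lyz2, lysozyme, 216, 312 and 241 bp. The Cd14 region was as even over the libraries as it was long, while that of Lyz2 was among the short ones.

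Markers of other lineages were few. Of megakaryocyte and mast cell markers 1 of 5, Gp9, had only regions without YY1. Gp9, a subunit of the platelet von Willebrand receptor, had 855, 424 and 380 bp and so was uneven over the libraries. Of lymphocyte markers 2 of 3 did, Cd4 in a region shared with Gpr162 and Cd79a in one shared with Arhgef1, so neither region can be assigned to the marker. Of endothelial markers 1 of 2 did, Eng, the TGF-beta co-receptor endoglin, with 1395, 1382 and 1448 bp.

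The listed receptors and adhesion molecules had larger shares than the 24.4% of all genes. Other lists of membrane proteins were near it, with solute carriers at 25% and Tmem genes at 24.1%. Of 27 receptors for cytokines, chemokines and growth factors, 12 (44.4%) had only regions without YY1. Il4ra, the IL-4 receptor alpha chain, had 1748, 1850 and 1077 bp of H3K4me3, and Tnfrsf1a, the TNF receptor, 1505, 1393 and 1368 bp. Il17ra had 1254, 1220 and 1177 bp, and Il10rb, in a region shared with Ifnar2, 1102, 1076 and 1121 bp. The 12 also included Flt3, a receptor of early progenitors, with 588, 615 and 479 bp.

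Of 14 integrins and adhesion molecules, 6 (42.9%) had only regions without YY1. They included Itga5, the fibronectin receptor chain, with 1618, 1342 and 1410 bp, Itgal, the LFA-1 alpha chain, with 1467, 1457 and 1543 bp, and Icam2 with 1100, 1071 and 1118 bp. Itga9 was shorter, with 538, 632 and 783 bp. Of 18 genes of interferon response and antigen presentation, 8 (44.4%) did, among them the peptide transporter gene Tap2 with 1678, 1728 and 1711 bp and the RNA sensor genes Ddx58 (1747, 1179 and 1325 bp) and Ifih1 (1075, 810 and 1032 bp). Tap2 was 1160 bp from a YY1 peak, and Ifih1 26338 bp.

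Ion channel and developmental genes, where they carried the mark at all, often lacked YY1. Of 134 potassium, sodium and calcium channel genes 17 had H3K4me3, and 13 of the 17 (76.5%) had only regions without YY1. Kcnh3 had 1116, 981 and 1180 bp, Kcnab2, in a region shared with Nphp4, 1121, 1054 and 1015 bp, Kcng3 979, 939 and 1065 bp, and Kcnk9 1025, 1150 and 711 bp. Of 42 developmental transcription factors 12 had H3K4me3, and 8 of the 12 (66.7%) had only regions without YY1. Foxc1, a forkhead factor, had 1182, 1211 and 1496 bp and no YY1 peak within 360457 bp. The neighbours Dlx1 (884, 882 and 907 bp) and Dlx2 (1193, 1186 and 1125 bp) both lacked YY1. Foxa1, in a region shared with Ttc6, had 937, 811 and 806 bp, wholly upstream of the Foxa1 start (-1099 to -163 bp). Lhx2 had a short region of 282, 306 and 314 bp, with YY1 81382 bp away. This region lay 585 bp from a gene end and had no start of the promoter table within 1000 bp. It is thus not shown to be at the Lhx2 start. HPC-7 was made with Lhx2, and the part of this in the region was not tested.

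Of 9 Hox genes with the mark, 3 did: Hoxb4 (1290, 1229 and 1169 bp), which promotes stem cell expansion, Hoxd4 (1728, 1545 and 1472 bp) and Hoxd8 (523, 192 and 557 bp). Of 7 cadherins and protocadherins, 4 did, with short regions such as Pcdh19 (590, 492 and 560 bp) and Cdh9 (454, 196 and 231 bp). Both of these lists are small, so 1 gene moves their shares widely. A single olfactory receptor of 1110 had H3K4me3 at an end, and it had YY1 there.

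Housekeeping genes had smaller shares than the 24.4% of all genes. Of 74 cytoplasmic ribosomal protein genes 8 (10.8%) had only regions without YY1, of 33 proteasome genes 4 (12.1%), of 63 oxidative phosphorylation genes 9 (14.3%) and of 42 splicing factor genes 4 (9.52%). The longest of these exceptions in each list are given here, and shorter ones were Psmb7 (718, 697 and 744 bp), Psmd6 (933, 899 and 708 bp), Snrpd1 (966, 730 and 793 bp) and Sf3a3 (840, 911 and 835 bp). Rps3a1 had 1582, 1355 and 1337 bp of H3K4me3, Rpl37a 1491, 1117 and 1196 bp, Rps26 1547, 932 and 1238 bp, and Rpl32 1284, 1189 and 980 bp. Among splicing genes Snrpb had 1318, 1099 and 1292 bp, and Snrpf 1234, 1098 and 1215 bp, with YY1 94187 and 135020 bp away.

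Psmb8, the immunoproteasome subunit, led the proteasome list in a region shared with the peptide transporter gene Tap1, with 1348, 1287 and 1220 bp. The constitutive subunit genes were Psmb4 (1144, 793 and 1045 bp) and the shorter Psmb7 and Psmd6. Ndufb9, a complex I subunit in a region shared with Tatdn1, was the one named housekeeping gene with SMC3, in control library 2 only. Ndufb3, Ndufa9 and Ndufa1 had 1090 to 1326 bp in library 3 and no SMC3.

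YY1 and its partners were near the background. Of 34 genes of YY1, the INO80 remodelling complex and Polycomb complexes, 8 (23.5%) had only regions without YY1. Ino80e, an INO80 subunit in a region shared with Hirip3, had 1660, 1270 and 1513 bp, and the Polycomb genes Cbx2, Phc2 and Pcgf6 had 1601, 1578 and 1238, 1343, 1192 and 1363, and 1098, 1042 and 809 bp. The other 4 were Phc1, Ezh1, Rybp and Yaf2. Of 12 cohesin subunits and regulators 1 did, Hdac8, the SMC3 deacetylase, with 1107, 867 and 1053 bp and no SMC3 peak. Apart from Hdac8, cohesin genes with H3K4me3 had YY1 at an end.

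Cell cycle regulators were also near it, at 8 of 35 (22.9%). Plk1, a mitotic kinase, had 1854, 1548 and 1486 bp, Cdkn2a, which codes for p16 and p19Arf, 1598, 1486 and 1440 bp, E2f2 1572, 1174 and 1225 bp, and the mitotic kinase gene Aurkb 1323, 997 and 1003 bp. The large families chosen by symbol did not stand apart either: 66 of 273 numbered Zfp zinc finger genes (24.2%), 34 of 141 Tmem genes (24.1%), 42 of 168 solute carriers (25%) and 12 of 55 genes with a Rab symbol (21.8%), which include the exchange factor gene Rab3ip, had only regions without YY1. Rab31, an endosomal GTPase, had the longest of the last, with 2211, 2004 and 1816 bp.

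**Figure D5:**
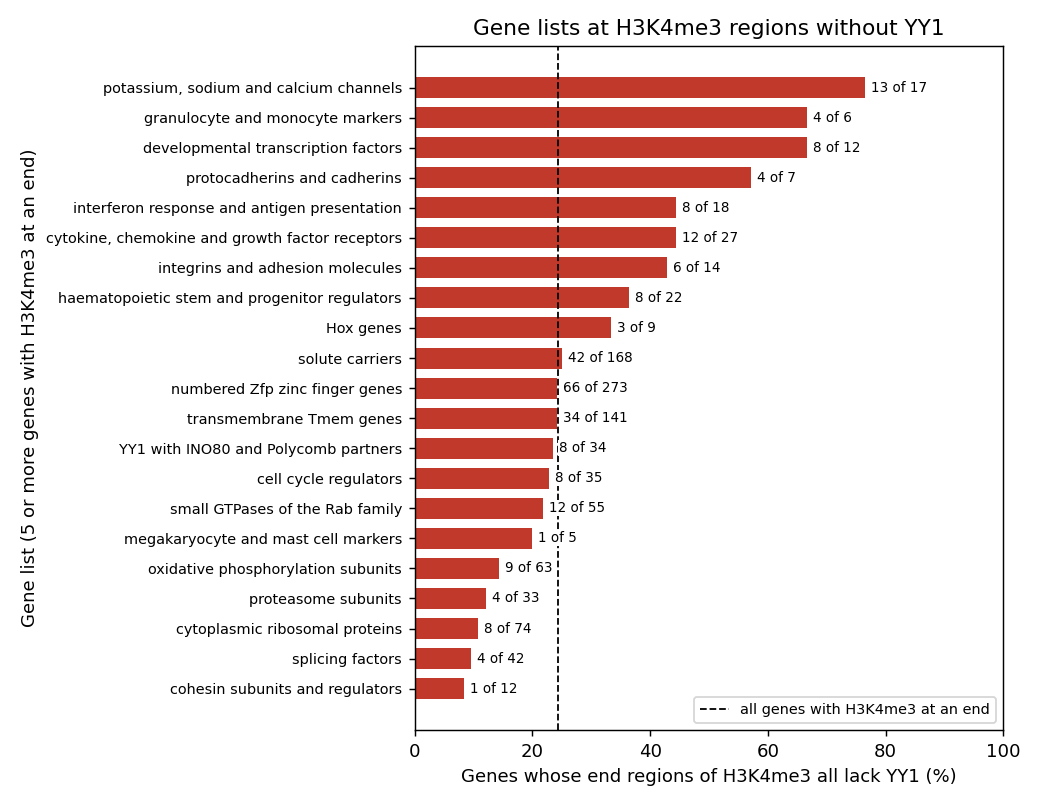
Share of genes in each list whose H3K4me3 regions at gene ends all lack YY1 (horizontal axis, %; bars start at 0), out of the genes with H3K4me3 at an end, for the lists described here with at least 5 such genes, with counts beside the bars. The dashed line is the 24.4% of all genes; channels, at 76.5%, and cohesin genes, at 8.33%, are the outer lists.

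Regions without YY1 were spread over the genome. They made up between 25.9% of the gene-end regions of chromosome 7 and 39.6% of those of chromosome 15, and 0 of 4 on chromosome Y. On chromosome X the share was 36.6%.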

How the data were processed

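Peak lists of 12 of 15 CUT&Tag libraries were used: H3K4me3, YY1 and SMC3 of control HPC-7 cells and SMC3 of shYY1 cells, 3 libraries each. The deposited lists give the start, end and summit offset of each peak in bp, 1 list per library, with no height or read number, so depth is unknown. The tools named in the submitters' processing notes are MACS2 2.2.9.1, Bowtie2 2.5.1, cutadapt 4.5 and Picard 3.1.1, with the build mm10 and settings not given in the sources used here. The peak names, which are numbered, skip 49 to 99 numbers in a list. Starts were read as counted from 0 and are printed counted from 1.

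Peaks were merged and matched to RefSeq GRCm38.p6 genes with Python 3.11.15, pandas 2.3.3, numpy 2.4.6 and SciPy 1.17.1, and plotted with matplotlib 3.10.9. Strand and promoter sequence came from the RefSeq promoter table of 21262 windows, which holds no window on chromosome 18. Overlap meant at least 1 bp. H3K4me3 length is the summed length of a library's peaks in a region. For each library SMC3 was summarised by a log2 odds ratio (0.5 added to the 4 counts), compared by an exact sign-flip test over 3 libraries and, between arms, by an exact permutation test over 20 assignments; a threshold of 0.05 could not be reached. The region rule, the log2 odds ratio and the motif search were checked on data with planted values. The planted log2 odds ratio was smaller in size than those found here. Both tests were checked on fixed numbers only, for their smallest p.

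No 2 libraries of a group were copies: at most 250 peaks of a pair had identical coordinates. The rule for named genes took the 10 longest and 5 shortest regions, every region with SMC3 in at least 2 libraries of an arm, up to 4 genes of each of 28 lists and the 5 regions on either side of the YY1 limit; some genes outside it are named too, chosen after their values were seen. The histone list matched no symbol, Mx1 was not found, and the erythroid list is not reported here. The regions, the gene and motif lists and the rules were chosen with earlier results of these data known. Alternatives were stricter and looser region rules, leaving out each replicate, a replicate block and equal peak numbers; leaving out regions near YY1 was added after the data had been seen.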

Additional observations from a re-analysis of the deposited data

How the results depend on the processing

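The number of regions without YY1 stayed within 1.5 times of 3159 under 14 alternatives, between 2382 (H3K4me3 peaks within 1000 bp joined) and 4453 (only YY1 regions of at least 2 libraries exclude). The log2 odds ratio of SMC3 without against with YY1 stayed negative under 17 alternatives in each arm, from -7.72 to -6.01 in control and from -8.08 to -6.13 in shYY1 cells.

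The H3K4me3 length ratio of 0.685 stayed below 1 throughout. It was 0.772 with peaks within 1000 bp joined, 0.741 when only YY1 regions of at least 2 libraries exclude, 0.702 for regions in 3 of 3 H3K4me3 libraries, 0.798 with the shortest 25% of peaks dropped, 0.650 and 0.720 with windows of 2500 and 500 bp, and 0.724 without regions under 1000 bp from YY1, and it ran from 0.675 to 0.735 with 1 replicate left out. The cause was not tested.

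The counts with SMC3 in at least 2 libraries, 6 in control and 2 in shYY1 cells, became 56 and 19 when only YY1 regions of at least 2 libraries exclude. The shYY1 count became 8 with the shortest 25% of peaks dropped. With 1 replicate left out they ran from 1 to 48 and from 0 to 15, highest without YY1 library 2. The shYY1 count of 0 came without shYY1 SMC3 library 2.

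The shYY1 minus control difference in the SMC3 share stayed negative under 23 alternatives, from -1.14 to -0.0106 points. That of the log2 odds ratio turned from -0.609 to 0.182 with the shortest 25% of peaks dropped and to 0.0625 with equal numbers of the longest SMC3 peaks, and was -0.162 without both libraries that name Abcam.

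With the replicate block, the mean difference was -0.369 points and -0.609 in the log2 odds ratio (exact sign-flip permutation over 3 same-numbered pairs, p = 0.5 for both; 0.25 is the smallest possible). Same-numbered deviations of the SMC3 calls correlated at -0.0608, 0.0489 and -0.0458 over gene-end regions. Different-numbered pairs also gave values of both signs. A call is only present or absent and the lists differ in peak number, so these values cannot decide whether same-numbered libraries were paired. Depth is unknown, so a missing call cannot be told apart from a shallow library.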
